A study of Mus musculus with 9 samples.

Results

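Cd1d1, the mouse gene for the molecule that presents lipids to natural killer T (NKT) cells, was followed with 7 genes for its light chain, its lipid loading and the lysosomal handling of its lipids: B2m, Mttp, Psap, Gla, Npc2, Ctsl and Gm2a. The 8 genes were chosen by symbol, and all 8 were among the 23337 genes of each count table and among the 12587 genes with enough reads to be tested. Liver RNA was sequenced from wild-type (WT) mice dissected while fed, after 12 weeks on a diet begun at 8 weeks of age. The groups were a normal diet (ND), a 60% high-fat diet (HFD), and the same 60% HFD with 0.25% hyodeoxycholic acid (HDCA), a secondary bile acid, called HFD_HDCA. Each group held 3 libraries. The series concerns fatty liver, the bile acid, invariant NKT cells and the nuclear receptor PPARα. The labels give no sex, cage or litter, and nothing in them says that the samples of a group came from separate animals, so the p-values measure the spread between these samples.

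CD1d is built like a class I histocompatibility molecule, with a heavy chain paired with beta-2 microglobulin, but its groove holds lipids in place of peptides. Microsomal triglyceride transfer protein helps to place lipids in the groove in the endoplasmic reticulum. After passing the cell surface CD1d is taken into lysosomes, where saposins and other lipid transfer proteins exchange its cargo and where glycosidases and cathepsins shape the lipids and proteins around it. The liver is rich in invariant NKT cells, which read these complexes, and hepatocytes, Kupffer cells, dendritic cells and B cells are all known to carry CD1d.

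Reads on genes ran from 16994353 to 20509203 per library, 63.9 to 72.1% of the reads in a file. Levels are in CPM, each gene's share of the reads on genes, scaled to each library's effective size. Calls were made with edgeR's quasi-likelihood test at an adjusted p under 0.05, adjusted by Benjamini-Hochberg over all 12587 genes. Albumin (Alb), the main hepatocyte secretory protein, which defines the labelled tissue, stood between 59441 and 96557 CPM. Several libraries stood apart from the rest. HFD_HDCA 1 had Saa1 and Lcn2, both acute phase genes, at 3371 and 331 CPM, against 22.8 to 74.4 and 1.77 to 18.6 CPM in the other 8 libraries. HFD 1 had the clock gene Dbp at 85.8 CPM against 0.752 to 14.6 elsewhere, and Arntl at 4.71 against 17.3 to 42.9 CPM. HFD 3 had the macrophage genes Emr1 and Marco, the latter named after its values were seen, at 112.4 and 228.5 CPM, against 6.72 to 32.3 and 2.68 to 20.5 CPM elsewhere, and HFD 2 was the lowest for both.

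Cd1d1 lies on mouse chromosome 3 next to a near-copy, Cd1d2, which GENCODE classes as a polymorphic pseudogene on the opposite strand. In the deposited tables Cd1d1 spans chr3:86995836-86999340 and Cd1d2 chr3:86986586-86989532 of the mm10 build. Over 1198 aligned bases of the first-listed GENCODE transcript of each gene they were 96.7% identical, with 40 mismatches. The 120 bases with the most mismatches, 12, lie in exon 3 of Cd1d1, at chr3:86998221-86998340 on the minus strand. They are shown because reads that cover a mismatch can be given to a single gene, and capitals mark the bases that differ.
Cd1d1 exon 3: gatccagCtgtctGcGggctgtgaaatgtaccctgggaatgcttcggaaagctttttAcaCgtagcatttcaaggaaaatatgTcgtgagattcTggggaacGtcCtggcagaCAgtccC
Cd1d2, same stretch: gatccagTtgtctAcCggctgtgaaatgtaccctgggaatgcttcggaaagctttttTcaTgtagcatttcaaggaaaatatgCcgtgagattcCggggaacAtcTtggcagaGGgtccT
The longest stretch without a mismatch ran for 242 bases across exons 4 and 5. Its exon 4 part, 199 bases at chr3:86997338-86997536 on the minus strand, reads the same in both genes.
Cd1d1 exon 4: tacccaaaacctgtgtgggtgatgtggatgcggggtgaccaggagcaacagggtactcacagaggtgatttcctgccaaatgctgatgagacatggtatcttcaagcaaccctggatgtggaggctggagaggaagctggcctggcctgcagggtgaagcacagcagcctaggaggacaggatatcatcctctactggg
Of the 36-base windows of that Cd1d2 transcript, 47.4% also occurred in a Cd1d1 transcript, and of its 100-base windows 23.3%. For the Cd1d1 transcript the shares that also occurred in a Cd1d2 transcript were 30.1 and 14.6%. The read length is not given in the sources used here.

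Cd1d1 was highest in the HFD_HDCA libraries, and it was the only one of the 8 genes called changed in any comparison. It was measured at 182.8, 191.2 and 205.4 CPM in ND, at 207.7, 241.5 and 208.3 in HFD, and at 321.1, 250.2 and 268.6 in HFD_HDCA. The 3 diets formed an ascending order without overlap, from ND to HFD to HFD_HDCA, although the highest ND and the lowest HFD library lay close together. Such an order, with no overlap at either step, was seen in 107 of the 12587 genes tested (0.85%). Cd1d1 rose by 0.54 ± 0.13 on the log2 scale (SE, 1.45-fold) from ND to HFD_HDCA, with a 95% confidence interval of 0.25 to 0.82 and edgeR's adjusted p at 0.0340. From HFD to HFD_HDCA the difference was 0.35 ± 0.13 (interval 0.07 to 0.63), with p at 0.0183 in edgeR before and 0.142 after adjustment. From ND to HFD it was 0.18 ± 0.13 (interval −0.10 to 0.46), with edgeR's adjusted p at 0.651.

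The call from ND to HFD_HDCA lay near the threshold. Without ND 1, ND 2 or ND 3 edgeR's adjusted p was 0.152, 0.119 and 0.0796. Without HFD_HDCA 1 or HFD_HDCA 3 it was 0.0507 and 0.0808, so that Cd1d1 passed in 4 of the 9 fits with 1 library removed. The log2 difference stayed between 0.42 and 0.62 in these 9 fits, and the lowest value came without HFD_HDCA 1, the acute phase library and the one with the most Cd1d1. Without HFD 2 and without HFD 3 the adjusted p was 0.0360 and 0.0463 in edgeR, with the log2 difference at 0.53 in both. Of 10 alternatives that removed no single library, 9 kept the call and 1 did not. The plot of adjusted p by processing setting shows where the call was lost.

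**Figure D1:**
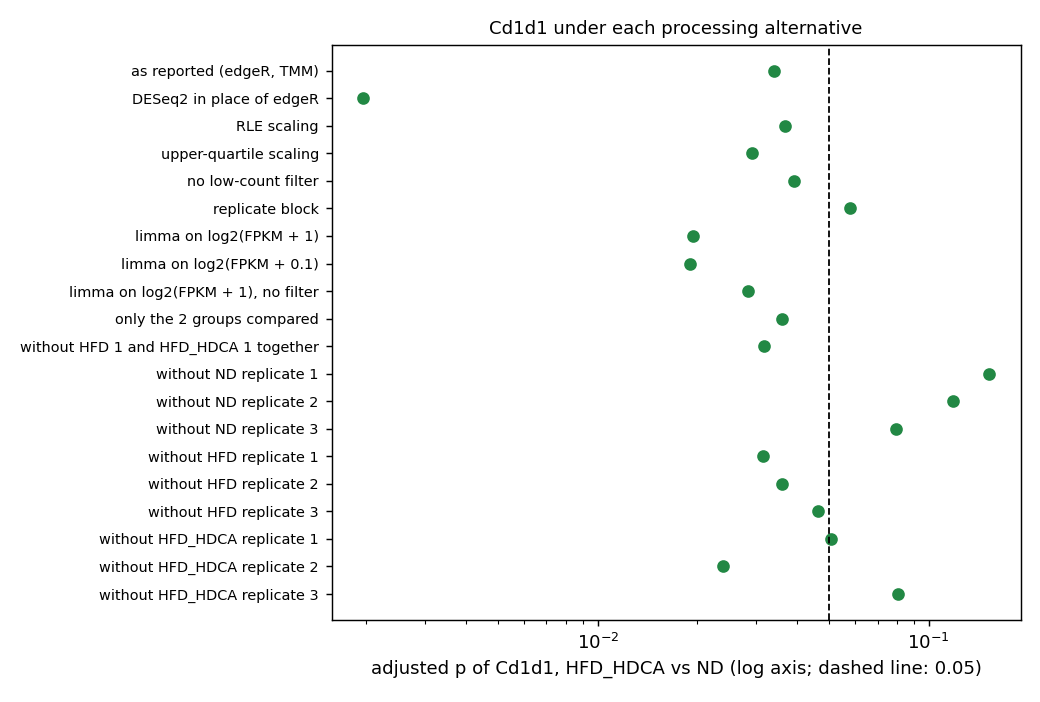
Adjusted p of Cd1d1 for HFD_HDCA against ND (horizontal log axis) under the reported edgeR fit and each alternative, 1 point per setting, with a dashed line at 0.05. The reported value is 0.0340, and the points to the right of the line include those without any single ND library.

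Whether reads shared with Cd1d2 entered the value was examined in both kinds of deposited table. HTSeq gave Cd1d2 4, 2 and 4 reads in ND, 4, 1 and 3 in HFD, and 9, 8 and 6 in HFD_HDCA, and these are under the filter on low counts. The Cufflinks tables, which give FPKM, a level per transcript length and per fragments mapped, listed Cd1d2 at 16.9, 16.7 and 17.4 in ND, 21.3, 22.5 and 19.2 in HFD, and 28.7, 21.4 and 24.9 in HFD_HDCA. In every library this was 17.9 to 20.1% of the FPKM of Cd1d1, while the HTSeq reads of Cd1d2 were 0.0209 to 0.186% of those of Cd1d1. The FPKM of Cd1d2 thus stood at a nearly fixed share of that of Cd1d1, and the level of Cd1d2 is uncertain. Cd1d1 itself had FPKM values of 85.5, 91.2 and 91.4 in ND, 106.9, 116.7 and 105.5 in HFD, and 143.1, 119.3 and 124.9 in HFD_HDCA. The ascending order of the diets was therefore present without overlap in both tables. Reads aligned to several places made up 16.6 to 19.4% of the ND files, 13.3 to 14.0% of the HFD files and 14.5 to 16.0% of the HFD_HDCA files, and their part in the Cd1d1 counts was not tested.

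**Figure D2:**
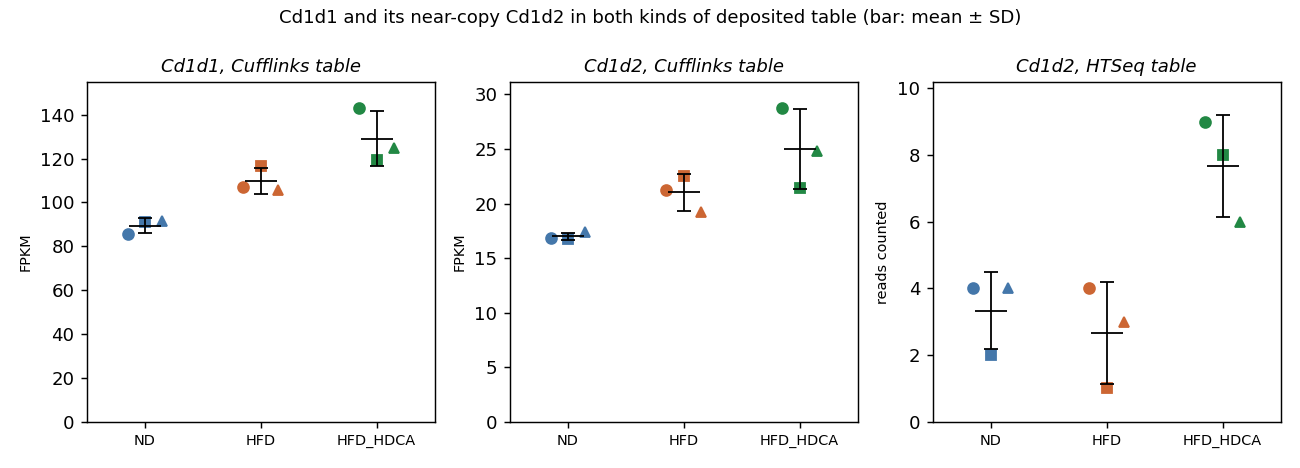
Cd1d1 and Cd1d2 FPKM from Cufflinks and Cd1d2 reads from HTSeq (vertical axes, from 0) in each library of the 3 diets; circles, squares and triangles are libraries 1, 2 and 3, and bars the mean ± SD. Cd1d2 follows Cd1d1 at 17.9 to 20.1% of its FPKM, but has only 1 to 9 HTSeq reads per library.

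B2m, the light chain of CD1d and of every class I molecule, showed no difference larger than the spread between libraries. Its 9 values were 1505, 1521 and 1457 CPM in ND, 1470, 1550 and 1417 in HFD, and 1878, 1537 and 1475 in HFD_HDCA. The groups overlapped in all comparisons, and the highest value came from HFD_HDCA 1. The log2 difference from ND to HFD_HDCA was 0.13 ± 0.13 (interval −0.16 to 0.41), with edgeR's adjusted p at 0.561. From HFD to HFD_HDCA it was 0.14 ± 0.13 (adjusted p 0.549, edgeR), and from ND to HFD it was −0.02 ± 0.13 (adjusted p 0.978, edgeR). B2m shares its locus with Patl2 on the opposite strand, and the strand setting of the counting is not given in the sources used here.

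Mttp encodes the large subunit of the microsomal triglyceride transfer protein, which also loads lipid onto apolipoprotein B. Mttp was at 336.4, 355.5 and 343.6 CPM in ND, at 313.9, 429.5 and 417.5 in HFD, and at 370.2, 494.6 and 457.1 in HFD_HDCA. All HFD_HDCA libraries lay above all ND libraries in CPM, though not in FPKM, and the lowest libraries of the high-fat groups were HFD 1 and HFD_HDCA 1. The log2 difference from ND to HFD_HDCA was 0.35 ± 0.15 (interval 0.01 to 0.69), with p at 0.0422 before and 0.175 after adjustment in edgeR. Without HFD 1 and HFD_HDCA 1 together it was 0.46 with edgeR's adjusted p at 0.0169, a call that the fit of all 9 libraries did not make. HFD_HDCA 1 was the lowest Mttp library of its group, so leaving it out raises the difference, and that fit cannot decide whether Mttp rose. With single libraries removed Mttp was never called, at an adjusted p of 0.0887 to 0.367 in edgeR. The other differences were 0.16 ± 0.15 from ND to HFD (adjusted p 0.750, edgeR) and 0.19 ± 0.15 from HFD to HFD_HDCA (adjusted p 0.50, edgeR).

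**Figure D3:**
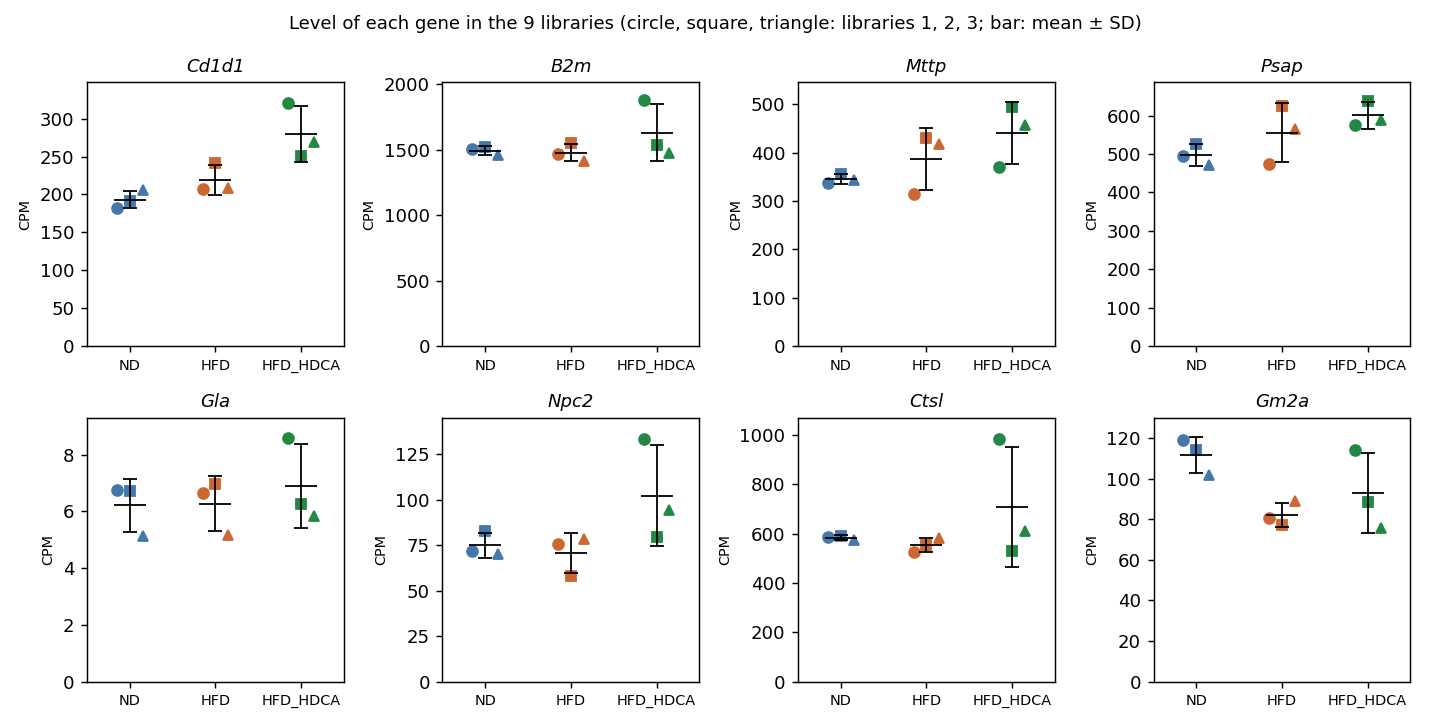
CPM (vertical axis, from 0) of the 8 genes in each library of the 3 diets; circles, squares and triangles are libraries 1, 2 and 3, and bars the mean ± SD (n = 3). Cd1d1 ascends from ND to HFD_HDCA without overlap, Gm2a is lower in HFD than in ND, and HFD_HDCA 1 is the highest library of all 9 for Cd1d1, B2m, Gla, Npc2 and Ctsl.

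Psap encodes prosaposin, the precursor of the saposins that lift lipids off membranes and exchange them on CD1d. It was at 493.8, 526.9 and 471.2 CPM in ND, at 474.2, 626.2 and 565.8 in HFD, and at 574.7, 639.1 and 587.5 in HFD_HDCA. The HFD_HDCA libraries lay above the ND libraries without overlap in CPM and in FPKM, while the HFD libraries overlapped both. The log2 difference from ND to HFD_HDCA was 0.27 ± 0.13 (interval −0.01 to 0.56), which missed the threshold at an adjusted p of 0.213 in edgeR.

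Npc2 is a soluble lysosomal protein that binds cholesterol and passes lipids between membranes. Npc2 was at 71.8, 82.9 and 70.4 CPM in ND, at 75.9, 58.1 and 78.3 in HFD, and at 133.0, 79.5 and 94.1 in HFD_HDCA. The HFD_HDCA libraries lay above the HFD libraries by a narrow margin in CPM and overlapped them in FPKM. The log2 difference from HFD to HFD_HDCA was 0.53 ± 0.19 (interval 0.12 to 0.94), with p at 0.0168 before and 0.137 after adjustment in edgeR. The leading value was again that of HFD_HDCA 1, and with single libraries removed the difference lay between 0.30 and 0.70.

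Gm2a encodes the GM2 activator, which lifts gangliosides and other glycolipids out of membranes. It was the only one of the 8 genes that was lower in every HFD library than in every ND library, at 80.5, 77.1 and 88.8 CPM against 118.8, 113.8 and 101.6. The log2 difference was −0.44 ± 0.15 (interval −0.77 to −0.11), with p at 0.0134 before and 0.264 after adjustment in edgeR. With HDCA it was at 114.2, 88.5 and 75.6 CPM, a range that overlapped both other diets. The difference from ND to HFD_HDCA was −0.26 ± 0.15 on the log2 scale (adjusted p 0.279, edgeR). With single libraries removed it ran from −0.44, without HFD_HDCA 1, to −0.14, without HFD_HDCA 3.

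Gla and Ctsl encode the enzymes of the set. Alpha-galactosidase A, the product of Gla, removes terminal galactose from glycolipids and is known to edit the lipids that reach NKT cells. Gla had the fewest reads of the 8, with 5.15 to 6.77 CPM in ND, 5.16 to 6.97 in HFD and 5.84 to 8.60 in HFD_HDCA, and the groups overlapped throughout. Its log2 differences were 0.01 ± 0.20, 0.14 ± 0.20 and 0.15 ± 0.20 for HFD against ND, HFD_HDCA against HFD and HFD_HDCA against ND, with adjusted p from 0.670 to 0.990 in edgeR. Ctsl, the gene for cathepsin L, a protease that thymic cells need for presentation by CD1d, was at 585.7, 592.0 and 575.2 CPM in ND and at 523.7, 555.6 and 581.8 in HFD. In HFD_HDCA it was at 983.4, 529.0 and 610.3 CPM, so that 1 library lay far above the other two. The log2 difference of Ctsl from ND to HFD_HDCA was 0.28 ± 0.20 (adjusted p 0.402, edgeR), and without HFD_HDCA 1 it was −0.04. The Ctsl locus overlaps a processed pseudogene on its own strand and an antisense gene.

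Read as a group, none of the 8 genes was called from ND to HFD, where edgeR called 0.953% of all tested genes. In that comparison 1 of the 8 had an unadjusted p under 0.05 (Gm2a, against 11.5% of all genes), DESeq2 called 0 (2.87% of all genes), and 4 of the 8 differences were positive. From HFD to HFD_HDCA edgeR again called none of the 8, against 3.4% of all genes. There 2 had an unadjusted p under 0.05 (Cd1d1 and Npc2, against 22% of all genes) and DESeq2 called 0 (8.58% of all genes). All 8 differences were positive, against 49.7% of all genes tested, with a median of 0.18 on the log2 scale against −0.0020. On log2(FPKM + 1) the 8 ran from 0.0037 to 0.37, with a median of 0.06. On counts the difference of Gla was −0.034 without HFD_HDCA 1. From ND to HFD_HDCA 1 of the 8 was called, Cd1d1, where 6.47% of all genes were called and 3.65% were called higher, so that 1 in 8 is not far from the background. Unadjusted p was under 0.05 for 3 of the 8 (Cd1d1, Npc2 and Mttp, against 26.1% of all genes), and DESeq2 called 1 (10.1% of all genes). In that comparison 7 of the 8 differences were positive, with a median of 0.27 against 0.03 for all genes. Libraries that did not overlap in CPM were found for 1 gene above (Cd1d1, against 10.9% of all genes) and 1 below (Gm2a, against 9.2%) from ND to HFD. They were found for 2 genes above from HFD to HFD_HDCA (Cd1d1 and Npc2, against 11.3%) and for 3 above from ND to HFD_HDCA (Cd1d1, Mttp and Psap, against 17.8%). The 3 comparisons share libraries and are not independent of each other.

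**Figure D4:**
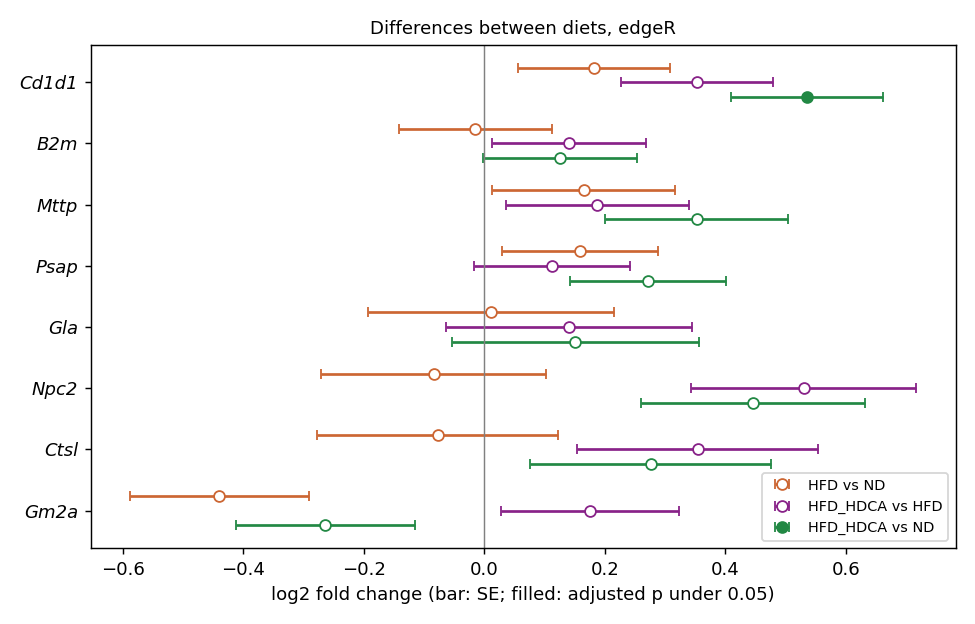
Log2 fold change (horizontal axis) of each of the 8 genes in the 3 comparisons, points with SE bars from edgeR, filled where the adjusted p was under 0.05. Cd1d1 at 0.54 for HFD_HDCA against ND is the only filled point, and all 8 points for HFD_HDCA against HFD lie to the right of 0.

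Differences of HFD_HDCA from ND and from HFD varied with transcript length over the whole table. The tested genes with a known length were split into 5 equal classes from short to long transcripts. The median log2 difference from ND to HFD_HDCA went from 0.14 in class 1 to −0.16 in class 5, and that from HFD to HFD_HDCA from 0.11 to −0.14. The part of length in the differences of the 8 genes, and in those of the other genes named below, was not tested. Cd1d1 was in class 2, whose median was 0.08 against its own 0.54, and B2m in class 1, whose median of 0.14 was close to its own 0.13.

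Levels between genes were compared as FPKM, which is per length. In every diet B2m was the highest, followed by Ctsl, Psap, Cd1d1 and Mttp, and no 2 neighbours in this order overlapped. In ND these were at 1598 ± 75.5, 222 ± 8.62, 154 ± 12.7, 89.4 ± 3.37 and 62.1 ± 2.90 FPKM (SD, n = 3). Gm2a at 19.2 ± 1.87 and Npc2 at 16.9 ± 1.92 came next in ND, with overlapping libraries. In HFD_HDCA their means stood in the other order, Npc2 at 22.7 ± 5.13 and Gm2a at 15.9 ± 2.91, again with overlap. Gla was the lowest in each diet, at 1.49 to 1.67 FPKM on average. B2m thus stood above Cd1d1, its partner, in every library.

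Across the 9 libraries the correlations between the 8 genes (Pearson's r of log2 CPM, 28 pairs) ran from −0.50 for Mttp and Gm2a to 0.91 for Mttp and Psap. B2m correlated with Ctsl at 0.88 and with Gla at 0.85, and Cd1d1 with B2m at 0.72. These values describe 9 libraries in which diet and HFD_HDCA 1, with its high B2m, Ctsl and Gla, are shared by all pairs. By the same measure the genes most like Cd1d1 over all tested genes were Pnrc2, a nuclear receptor coactivator, at 0.98, Lyrm5 at 0.98, Dscr3 at 0.98, Rnf34 at 0.97 and Haus2 at 0.96. Pnrc2 was at 58.3 ± 4.91 CPM in ND, 65.7 ± 3.07 in HFD and 83.7 ± 13.1 in HFD_HDCA. Closest to Mttp were the proteasome subunit gene Psmd7 at 0.97, Sptlc1, a subunit of serine palmitoyltransferase, at 0.97, and Tor3a at 0.97.

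The starts of 7 of the 8 genes were searched for 3 motifs on both strands, in RefSeq windows of GRCm38.p6 that run from 250 bases before to 50 after a start. No window was matched for Cd1d1, so its start was not searched. Psap had 2 windows. CACGTG, the E-box core of the element shared by many lysosomal genes, occurred at 227 and 194 bases before the start of Gla and 236 before that of Ctsl, and in 7.15% of all 32851 windows. GAAANNGAA, the core of the interferon-stimulated response element, occurred 139 bases before the start of B2m and in 8.56% of all windows. CAAAGGTCA, a core of the direct repeat bound by HNF4A and PPARα, was in none of the windows of the 7 genes and in 0.478% of all. A match describes letters only. The Ctsl window, chr13:64370471-64370770, does not overlap the deposited span of Ctsl. On the minus strand that span begins at 64370306 and the GENCODE gene at 64370890, so the start of Ctsl is uncertain. The 250 bases before each start are shown for B2m, Ctsl and Gla, since Ctsl and Gla were the 2 of the 8 most like B2m across libraries, with the matches in capitals.
B2m, chr2:122147437-122147686, plus strand: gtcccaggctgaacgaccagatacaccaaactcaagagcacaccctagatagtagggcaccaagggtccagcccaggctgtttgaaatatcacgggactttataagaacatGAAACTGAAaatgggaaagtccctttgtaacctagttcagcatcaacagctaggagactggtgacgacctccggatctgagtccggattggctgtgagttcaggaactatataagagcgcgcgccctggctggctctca
Gla, chrX:134601006-134601255, minus strand: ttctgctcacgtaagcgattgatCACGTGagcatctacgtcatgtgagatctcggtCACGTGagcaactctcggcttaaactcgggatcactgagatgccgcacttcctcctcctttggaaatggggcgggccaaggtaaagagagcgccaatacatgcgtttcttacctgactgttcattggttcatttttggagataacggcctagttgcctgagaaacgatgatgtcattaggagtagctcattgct
Ctsl, chr13:64370521-64370770, minus strand: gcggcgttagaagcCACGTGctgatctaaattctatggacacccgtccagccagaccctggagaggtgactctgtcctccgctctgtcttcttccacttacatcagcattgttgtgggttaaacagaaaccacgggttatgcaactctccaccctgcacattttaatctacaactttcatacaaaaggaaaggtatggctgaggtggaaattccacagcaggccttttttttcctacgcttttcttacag

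The lists that follow are set beside shares of all genes tested, in the order HFD against ND, HFD_HDCA against HFD and HFD_HDCA against ND. In edgeR 0.953, 3.4 and 6.47% were called, and in DESeq2 2.87, 8.58 and 10.1%. Unadjusted p in edgeR was under 0.05 for 11.5, 22 and 26.1%, and differences were positive for 53.3, 49.7 and 53.0%. Of the other genes that fold CD1d or carry it through the cell, 10 were tested and 9 had negative differences from ND to HFD_HDCA, with a list median of −0.23 on the log2 scale against 0.03 for all genes. In each comparison of HFD_HDCA, with HFD and with ND, edgeR called 1 lower, and DESeq2 called 1 higher and 1 lower. The gene edgeR called was Ap3m1, a subunit of the AP-3 adaptor that sorts CD1d to lysosomes. Ap3m1 was at 99.8, 92.4 and 94.6 CPM in ND, 103.5, 92.9 and 70.9 in HFD, and 53.4, 50.6 and 53.8 in HFD_HDCA. Every HDCA library lay below every other library, with a fall of 0.76 ± 0.13 from HFD (adjusted p 0.0153, edgeR) and of 0.86 ± 0.13 from ND (adjusted p 0.00617, edgeR). With single libraries removed the call against ND was made in 9 of 9 fits and that against HFD in 7, lost without HFD 2 or HFD_HDCA 3 (adjusted p up to 0.0618, edgeR). Another AP-3 subunit, Ap3s1, named after its values were seen, went the other way and was the gene DESeq2 called higher. It rose by 0.42 ± 0.11 from HFD and from ND without overlap (adjusted p 0.0725 and 0.0561 in edgeR, 0.0330 and 0.0389 in DESeq2). Ap3b1 and Ap3d1, also AP-3 subunits, were called by neither. From ND to HFD edgeR called none of the 10, 1 had an unadjusted p under 0.05 and DESeq2 called 0. The smallest p belonged to Cd74, the invariant chain, at −0.59 ± 0.19 with an adjusted p of 0.229.

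Of 11 other lysosomal cathepsins tested, edgeR called 2 higher from HFD to HFD_HDCA and 1 higher from ND to HFD_HDCA, where 1.67 and 3.65% of all genes were called higher. In each of these comparisons 10 of the 11 differences were positive, with list medians of 0.36 from HFD and 0.34 from ND against −0.0020 and 0.03 for all genes. HFD_HDCA 1, the acute phase library, was the highest of all libraries for each of the 11 except Ctsf. The part of that library in the list medians was not tested. Ctsf, a cysteine protease of the same family as cathepsin L, was at 26.6, 27.4 and 30.0 CPM in ND, 23.7, 24.5 and 21.6 in HFD, and 40.0, 41.3 and 35.2 in HFD_HDCA. It rose by 0.74 ± 0.11 from HFD (adjusted p 0.00825, edgeR) and by 0.47 ± 0.11 from ND (adjusted p 0.0282, edgeR), with no overlap in either. Ctsz, which encodes the carboxypeptidase cathepsin Z, was at 191.8, 199.4 and 173.5 CPM in ND, 145.7, 153.4 and 180.4 in HFD, and 257.8, 238.7 and 218.1 in HFD_HDCA. It rose by 0.58 ± 0.12 from HFD to HFD_HDCA (adjusted p 0.0349, edgeR). The call of Ctsf against HFD was made in 9 of 9 fits with 1 library removed, and that against ND in 6, lost without any ND library (adjusted p up to 0.136, edgeR). That of Ctsz was made in 2 of 9, those without HFD 3 or HFD_HDCA 2, and elsewhere its adjusted p reached 0.102 in edgeR. From ND to HFD edgeR called none of the 11, 1 had an unadjusted p under 0.05 and DESeq2 called 0.

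Among the other lysosomal lipid hydrolases and activators edgeR called none of 15 in any comparison. In the order HFD against ND, HFD_HDCA against HFD and HFD_HDCA against ND, 1, 3 and 1 had an unadjusted p under 0.05 and DESeq2 called 0, 1 and 1. In both comparisons of HFD_HDCA the smallest p belonged to Hexa, a subunit of the hexosaminidase that works with the GM2 activator, at 0.44 ± 0.13 from HFD (adjusted p 0.0825, edgeR) and from ND (adjusted p 0.0638, edgeR). Of 11 lysosomal membrane and enzyme sorting genes 1 was called, Igf2r, the receptor that carries mannose-6-phosphate enzymes to lysosomes. Igf2r was at 50.8, 53.0 and 39.4 CPM in ND, 46.5, 48.6 and 47.6 in HFD, and 24.8, 33.9 and 34.7 in HFD_HDCA. It fell by 0.62 ± 0.15 from ND to HFD_HDCA (adjusted p 0.0383, edgeR). This call was made in 3 of 9 fits with 1 library removed, those without ND 3, HFD 1 or HFD_HDCA 2, and elsewhere the adjusted p reached 0.150 in edgeR. Of these 11 genes edgeR called none in the other comparisons, while 1 from ND to HFD and 4 from HFD to HFD_HDCA had an unadjusted p under 0.05 and DESeq2 called 1 in each.

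**Figure D5:**
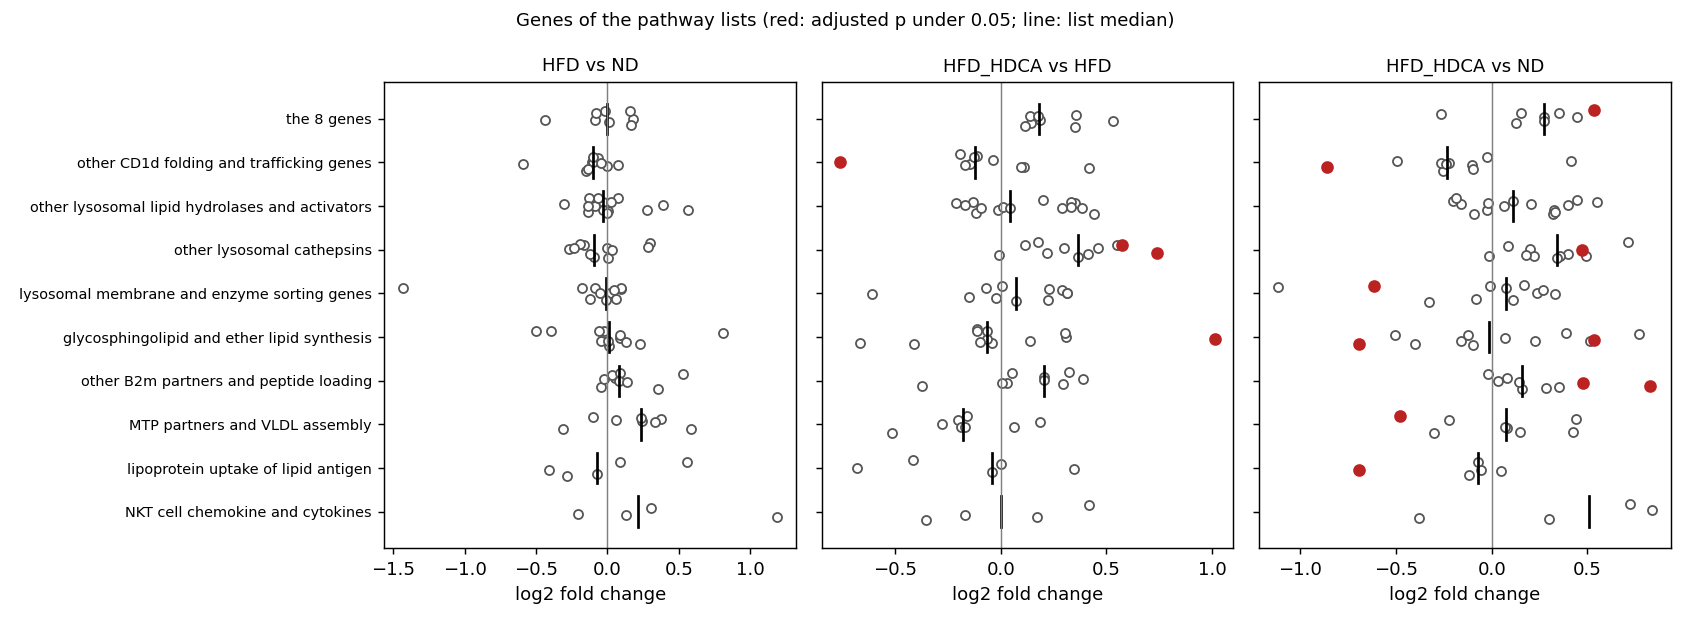
Log2 fold change (horizontal axis) of every tested gene of the 8 genes and of 9 related lists (vertical axis) in the 3 comparisons; red points had an adjusted p under 0.05 in edgeR and lines mark list medians. No point is red from ND to HFD, and the cathepsin list has medians of 0.36 and 0.34 for HFD_HDCA against HFD and against ND. HFD_HDCA 1 was the highest of all libraries for each of these cathepsins except Ctsf.

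The genes that make glycosphingolipids and ether lipids, from which self antigens of NKT cells are drawn, moved in both directions. From ND to HFD_HDCA 1 of 12 was called higher and 1 lower. Ugcg, glucosylceramide synthase, was at 19.7, 18.3 and 24.7 CPM in ND, 24.3, 23.6 and 25.4 in HFD, and 29.1, 28.1 and 33.7 in HFD_HDCA. It rose by 0.54 ± 0.13 from ND to HFD_HDCA (adjusted p 0.0382, edgeR). B4galt5, which adds the galactose of lactosylceramide, was at 26.3, 28.0 and 24.6 CPM in ND, 30.6, 22.0 and 25.0 in HFD, and 14.3, 14.5 and 20.0 in HFD_HDCA. It fell by 0.69 ± 0.16 from ND to HFD_HDCA (adjusted p 0.0335, edgeR). St3gal5, which makes the ganglioside GM3 from that product, was at 108.9, 128.2 and 90.5 CPM in ND, 77.9, 66.5 and 87.3 in HFD, and 179.5, 144.2 and 143.5 in HFD_HDCA. It rose by 1.01 ± 0.16 from HFD to HFD_HDCA (adjusted p 0.0117, edgeR). It was the only gene of the list called from HFD to HFD_HDCA, and from ND to HFD edgeR and DESeq2 called 0, with 2 at an unadjusted p under 0.05. The call of St3gal5 was made in 9 of 9 fits with 1 library removed. That of Ugcg was made in 3, those without ND 3, HFD 1 or HFD_HDCA 2 (adjusted p up to 0.160, edgeR), and that of B4galt5 in 4, lost without any ND library, HFD_HDCA 1 or HFD_HDCA 2 (adjusted p up to 0.119, edgeR).

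Of 9 other B2m partners and peptide loading genes, 2 were called higher from ND to HFD_HDCA, against 3.65% of all genes. In that comparison 8 of the 9 differences were positive, against 53.0% of all genes. Fcgrt, the neonatal Fc receptor chain that pairs with beta-2 microglobulin, was at 154.2, 175.2 and 141.9 CPM in ND, 172.5, 172.3 and 157.3 in HFD, and 209.7, 222.7 and 224.1 in HFD_HDCA. It rose by 0.48 ± 0.11 from ND to HFD_HDCA (adjusted p 0.0319, edgeR). Tap1, a peptide transporter subunit induced by interferon, was at 19.8, 17.2 and 14.8 CPM in ND, 24.3, 28.0 and 22.7 in HFD, and 32.5, 32.1 and 27.3 in HFD_HDCA. It rose by 0.83 ± 0.14 from ND to HFD_HDCA (adjusted p 0.00868, edgeR). From ND to HFD the difference of Tap1 was 0.53 ± 0.14, with an adjusted p of 0.131 in edgeR and no overlap. The call of Tap1 was made in 9 of 9 fits with 1 library removed and that of Fcgrt in 6, lost without ND 1, ND 3 or HFD_HDCA 3 (adjusted p up to 0.139, edgeR). In the order HFD against ND and HFD_HDCA against HFD, edgeR called none of the 9, 1 and 2 had an unadjusted p under 0.05, and DESeq2 called 0 and 1.

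Around Mttp, 1 of 8 genes for its partners and for the assembly of very low density lipoprotein was called, in the comparison of HFD_HDCA with ND. Hnf4a, the nuclear receptor that governs many hepatocyte genes, was at 724.6, 786.5 and 726.6 CPM in ND, 639.4, 595.6 and 568.2 in HFD, and 472.5, 559.2 and 573.1 in HFD_HDCA. It fell by 0.48 ± 0.12 from ND to HFD_HDCA (adjusted p 0.0431, edgeR), and every HFD library also lay below every ND library. Of 5 genes for the uptake of lipoprotein-borne lipid, Lrp1 was called in the same comparison. Lrp1 was at 780.8, 788.9 and 655.5 CPM in ND, 687.9, 571.5 and 574.6 in HFD, and 396.7, 469.5 and 509.1 in HFD_HDCA. Its fall from ND to HFD_HDCA was 0.69 ± 0.14 (adjusted p 0.0204, edgeR). With 1 library removed the call of Lrp1 was made in 7 of 9 fits, lost without ND 1 or ND 2 (adjusted p up to 0.0990, edgeR), and that of Hnf4a in 2, those without HFD 1 or HFD_HDCA 2 (adjusted p up to 0.150, edgeR). With all libraries and no filter on low counts Hnf4a missed the threshold too, at an adjusted p of 0.0551 in edgeR. In the other comparisons edgeR called none of either list. From ND to HFD 4 of the 8 and 1 of the 5 had an unadjusted p under 0.05 and DESeq2 called 0, and from HFD to HFD_HDCA 1 and 2 did, with 0 and 1 called by DESeq2. Of the 7 NKT cell chemokine and cytokine genes 4 were tested and edgeR and DESeq2 called 0 in each comparison, with 1, 0 and 1 at an unadjusted p under 0.05 in the order used above. Cxcl9, a chemokine induced by interferon gamma, differed by 0.72 ± 0.24 from ND to HFD_HDCA (adjusted p 0.0946, edgeR), with overlapping libraries.

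In bulk liver, fewer cells of a type and less RNA per cell cannot be told apart. The 17 T and NKT cell markers summed to 16.3 to 37.1 CPM in ND, 11.3 to 14.1 in HFD and 14.0 to 17.3 in HFD_HDCA, and 13 of the 17 averaged under 1 CPM. Cd3d and Cd3e, subunits of the T cell receptor complex, were at 0.052 to 0.666 and at 0 to 0.782 CPM, and Cd3e had no read in HFD_HDCA 1. Cd3d was at 0.052 to 0.289 CPM in ND, 0.354 to 0.542 in HFD and 0.421 to 0.666 in HFD_HDCA. All HFD_HDCA libraries lay above all ND libraries, by 1.88 ± 0.56 on the log2 scale (p 0.00700 before and 0.0743 after adjustment, edgeR). This difference of Cd3d rested on few reads, 1, 2 and 5 in ND and 11, 10 and 7 in HFD_HDCA. The largest part of the sum in ND was Zbtb16, a transcription factor of NKT cells that other cells also use, named here after its values were seen, at 9.26 to 26.5 CPM in ND, 2.22 to 7.29 in HFD and 4.18 to 5.47 in HFD_HDCA. Its log2 differences from ND were −1.62 ± 0.48 and −1.72 ± 0.49, with adjusted p at 0.220 and 0.0730 in edgeR. Without Zbtb16 the sums were 7.08 to 10.6 CPM in ND, 6.47 to 9.10 in HFD and 9.82 to 12.8 in HFD_HDCA, so that HFD_HDCA lay above HFD and overlapped ND. Of the 9 markers that passed the filter on low counts, 8 had positive differences from HFD to HFD_HDCA (median 0.52) and 5 from ND to HFD_HDCA (median 0.57). In edgeR 0 of the 9 were called in any comparison. Unadjusted p was under 0.05 for 2 from ND to HFD, 1 from HFD to HFD_HDCA and 2 from ND to HFD_HDCA, and DESeq2 called 1, 0 and 1. Most markers of the cells that read CD1d were thus read sparsely at this depth.

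Markers of cells that can carry CD1d were read in the same way. The 12 Kupffer cell and macrophage markers summed to 544.7 to 639.8 CPM in ND, 198.9 to 1138 in HFD and 471.9 to 911.6 in HFD_HDCA, lowest in HFD 2 and highest in HFD 3. The 5 B cell markers found in the files summed to 5.05 to 7.57 CPM in HFD_HDCA, above all other libraries at 2.07 to 3.80 CPM, and 4 of the 5 averaged under 1 CPM. The 7 dendritic cell markers summed to 9.82 to 10.5 CPM in HFD_HDCA, 7.40 to 8.95 in ND and 6.36 to 9.80 in HFD. The HFD_HDCA and HFD libraries were thus barely apart in this sum, and 4 of the 7 markers averaged under 1 CPM. The 5 neutrophil markers found reached 16.7 CPM in HFD_HDCA 1 against 1.77 to 6.77 in the other libraries. The part of these cells in the difference of Cd1d1 was not tested.

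Markers of the structural cells of the liver spread within the diets. The sums were 325 to 369 CPM in HFD_HDCA against 199 to 397 in the other libraries for 8 sinusoidal endothelial markers, 353 to 511 against 379 to 453 for 8 stellate cell markers, and 54.2 to 119 against 45.2 to 84.8 for 5 cholangiocyte markers. HFD_HDCA 1 was the highest of all libraries for the stellate and the cholangiocyte sums. The 8 hepatocyte markers summed to 98720 to 109002 CPM in ND, below all libraries of the high-fat diets at 115530 to 137095. Most of this sum was Alb, and without it the other 7 overlapped, at 39278 to 41325 CPM in ND and 39628 to 45600 in the high-fat diets. Of the 8 differences from ND to HFD, 5 were positive and 3 negative, with a median of 0.04. Counted among them is Ass1, named after its values were seen, which had 3 to 14 HTSeq reads but 68.4 to 187.8 FPKM per library. The cause of this disagreement between the 2 kinds of value was not tested. Of the 8, 1 was called, Cps1, the mitochondrial enzyme that starts the urea cycle, named after its values were seen. Cps1 fell by 1.11 ± 0.17 from ND to HFD_HDCA (adjusted p 0.00619, edgeR), in 9 of 9 fits with 1 library removed. Of all 9 marker lists no gene was at 0 reads in all libraries, and Cps1 was the only marker edgeR called in any comparison.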

How the data were processed

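RNA was sequenced in 9 mouse liver libraries, 3 in each of 3 diets. The authors deposited HTSeq read counts per gene, as whole numbers without scaling. Their names include "antisense", and the strand setting is not given in the sources used here. The authors also deposited Cufflinks FPKM values, per the file headers. TopHat 1.3.2, Cufflinks 2.0.2 and mm10 are named in the submitters' processing notes. Each library had 16994353 to 20509203 reads on genes.

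Counts were tested in R 4.3.3 with edgeR 4.0.16 (filterByExpr with a minimum count of 10, TMM scaling, robust quasi-likelihood F test, two-sided). All 9 libraries entered 1 model with a coefficient per diet, and p-values were adjusted over the 12587 genes tested. Reads assigned to no gene were left out, which kept 63.9 to 72.1% of a file. CPM are per TMM-scaled library. An exact permutation test of 3 libraries against 3 cannot go below p = 0.1. No 2 replicates were alike within counting error (chi-square over degrees of freedom 11.1 to 90.8). Alternatives were DESeq2 1.42.0, limma 3.58.1 on log2(FPKM + 1), other scalings and filters, the replicate number as a block, and leaving out libraries. The fits were tested on simulated data.

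The 8 genes, the lists and the tests were chosen with earlier results of these data known. Named were the 8 genes and Cd1d2, called genes of each pathway list (up to 4, or else the gene with the smallest p), the first 2 markers of a list, and the genes with the highest correlation to Cd1d1 and Mttp. Older symbols were matched to current ones, in part after the files had been read. Some genes of the lists are not reported here. Ighm and Ly6g were not matched. Transcripts came from GENCODE M21 and start windows from RefSeq. A planned comparison of the proteins of Cd1d1 and Cd1d2 was replaced by one of their transcripts.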

Additional observations from a re-analysis of the deposited data

How the results depend on the processing

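Of 240 values under alternatives that kept every library or left out HFD 1 and HFD_HDCA 1 together, 223 kept their direction and their side of the threshold, 15 changed sign, 1 was lost and 1 gained; leaving out single libraries left 201 of 216 as they were, with 10 changes of sign and 5 losses. No difference that changed sign had been called. From ND to HFD, B2m was at 0.0058 on the log2 scale with upper-quartile scaling and at 0.093 in each of the 3 FPKM fits, Ctsl at 0.031 and Npc2 at 0.017 in each of them, and Gla at −0.0063 with DESeq2, −0.0042 with RLE scaling and −0.061 without HFD 1 and HFD_HDCA 1. Without those 2 libraries the differences from ND to HFD_HDCA were −0.039 for Ctsl and −0.040 for Gla. Without single libraries B2m ran from −0.051 to 0.014, Npc2 from −0.16 to 0.039 and Gla from −0.11 to 0.13 from ND to HFD, Gla from −0.034 to 0.25 from HFD to HFD_HDCA, and Ctsl from −0.040 to 0.45 and Gla from −0.041 to 0.26 from ND to HFD_HDCA. The cause was not tested. The labels do not say that a replicate number marks something shared. After group means were subtracted, correlations ran from −0.15 to 0.15 for same-numbered libraries and from −0.15 to 0.13 for others. With 3 libraries a group and such like ranges, a pairing by number was neither shown nor excluded. With the replicate block Cd1d1 had an adjusted p of 0.0578 in edgeR for HFD_HDCA against ND, so that 0 of the 8 genes were called, and 82, 328 and 715 genes were called in the 3 comparisons. Without HFD 1 and HFD_HDCA 1 together 2 of the 8 were called (Cd1d1 and Mttp), and without single libraries 0 to 1. Genes called from ND to HFD numbered 120, with DESeq2 366, without the 2 libraries 576 and without single libraries 32 to 226. From HFD to HFD_HDCA they numbered 428, with DESeq2 1040, with FPKM and no filter 283, with only the 2 groups fitted 134, without the 2 libraries 977 and without single libraries 127 to 672. From ND to HFD_HDCA they numbered 815, with DESeq2 1321, with FPKM and no filter 523 and without single libraries 196 to 1213. On FPKM 104 of 164 calls from ND to HFD and 142 of 523 from HFD to HFD_HDCA were higher, against 60 of 120 and 210 of 428 on counts. The median of all genes there moved to 0.11 and −0.11 with a pseudocount of 0.1, against 0.02 and −0.0020. The 14 calls of the other genes named kept their side of the threshold in 117 of 140 alternatives that left out no single library and none changed sign; those of Ctsz and Igf2r held in 4 of 10 each. With the replicate block the calls of Ctsz, Igf2r, Hnf4a and Ctsf against ND were lost (adjusted p 0.0574, 0.0506, 0.0677 and 0.0505, edgeR). Hnf4a was also lost with no filter on low counts, B4galt5 in the 3 FPKM fits, Hnf4a, Fcgrt and Ugcg in the unfiltered one, and Ugcg and Ap3m1 against HFD with only the 2 groups fitted. Gla, with the fewest reads, had the widest intervals, and Cd1d2 had too few HTSeq reads to test.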
